A study of Mus musculus with 9 samples.

Results

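The major histocompatibility complex of the mouse, H2, and the genes that supply it with peptides were followed probe set by probe set on arrays of the lateral nasal gland, a secretory gland of the nose. A probe set, a group of short probes that together report 1 transcript, was taken when its platform annotation held a symbol starting with H2-, or was B2m, Tap1, Tap2, Tapbp, Cd74, Ciita or Ctss. This gave 65 of the 22626 probe sets that were not controls, of which 51 carried 1 symbol and 14 carried several. By their symbols, 36 belonged to class I heavy chains, 9 to the class I light chain and peptide loading genes, 15 to class II chains, 4 to other class II genes, and 1 to H2-Ke6, a hydroxysteroid dehydrogenase gene inside the complex.

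The 9 arrays held RNA of male mice aged 2 to 3 months, with glands of 10 mice pooled for each array. Wild-type 129/Sv mice gave 2 arrays, wild-type B6 mice 4, and Cyp2g1-null mice 3. The null line, which lacks an olfactory cytochrome P450, has a mixed genetic background, and both strains served as its controls. Neither the make-up of that background nor the H2 haplotype of the null mice is given in the sources used here, so strain background and genotype cannot be told apart in the comparisons of null arrays. The arrays are separate pools, but nothing says that each came from different litters or days, so p-values measure only the spread between these pools. The targeted gene, Cyp2g1 (probe set 1449565_at), gave 207.5 and 981 on the 129/Sv arrays, 5917, 748, 2007 and 2799 on the B6 arrays and 55.7, 141 and 201 on the Cyp2g1-null arrays. Its null arrays were the 3 lowest of 9, but the first 129/Sv array lay just above them, and the difference from 129/Sv did not pass (adjusted p = 0.325). Array medians ran from 523 to 553, correlations between arrays from 0.925 to 0.942, and no 2 arrays were identical. The number of arrays limits the precision.

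Class I molecules are built from a heavy chain and the light chain beta-2-microglobulin, the product of B2m, and are made by nearly all nucleated cells. The transporter of Tap1 and Tap2 brings peptides into the endoplasmic reticulum, where tapasin, the product of Tapbp, helps to load them. Class II molecules pair an alpha and a beta chain (H2-Aa with H2-Ab1, H2-Ea with H2-Eb1) and are made mainly by dendritic cells, macrophages and B cells, though epithelia can be induced to make them. The invariant chain, encoded by Cd74, guides class II through the cell, cathepsin S (Ctss) trims it, H2-DM exchanges its last fragment for peptide, and Ciita is the master transcriptional activator of class II. Mice with the b haplotype, such as B6, do not make a functional H2-E alpha chain. Heavy chain genes resemble one another and differ between haplotypes, which can change how single probes hybridise. The probe sets were therefore kept apart.

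Promoters of both classes share an enhanceosome with a CCAAT box and a cyclic AMP response element, and classical class I promoters also have enhancer A, a site of NF-kappa-B proteins. The RefSeq promoter table (build GRCm38.p6) held 26 of the 40 member symbols. Shown are the 250 bases before the start of H2-D1 (chr17:35262844-35263093, plus strand), H2-K1 (chr17:34000348-34000597, minus strand, the first of 2 entries), B2m (chr2:122147437-122147686, plus strand), H2-Aa (chr17:34287824-34288073, minus strand) and H2-Eb1 (chr17:34305617-34305866, plus strand). H2-D1 and B2m were called in the comparisons below, while H2-K1, H2-Aa and H2-Eb1 were not and are shown as the other classical heavy chain and 2 class II genes with null arrays above all wild-type arrays on 1 probe set each. H2-Ab1, the class II gene that was called, had no entry. Capitals mark matches on either strand to CCAAT (the CCAAT box, which reads ATTGG on the other strand), to TGACG (the core of a cyclic AMP response element), to GAAANNGAA (an interferon response core) or to GGGGANTCC (the enhancer A core).
H2-D1: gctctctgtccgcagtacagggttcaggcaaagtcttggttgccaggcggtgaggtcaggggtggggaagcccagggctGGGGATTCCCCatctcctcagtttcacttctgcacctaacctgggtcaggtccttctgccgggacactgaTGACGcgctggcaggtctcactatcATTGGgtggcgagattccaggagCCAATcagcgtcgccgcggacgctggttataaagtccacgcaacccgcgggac
H2-K1: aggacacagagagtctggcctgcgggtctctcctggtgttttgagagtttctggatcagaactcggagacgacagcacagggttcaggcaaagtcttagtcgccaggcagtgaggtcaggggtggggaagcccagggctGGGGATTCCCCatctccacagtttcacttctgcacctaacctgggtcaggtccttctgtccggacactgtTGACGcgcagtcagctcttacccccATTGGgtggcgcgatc
B2m: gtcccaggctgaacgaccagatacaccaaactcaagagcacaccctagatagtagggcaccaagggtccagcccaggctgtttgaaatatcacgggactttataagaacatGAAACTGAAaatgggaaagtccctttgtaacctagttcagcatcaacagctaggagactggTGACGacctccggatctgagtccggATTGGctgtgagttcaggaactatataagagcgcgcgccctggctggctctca
H2-Aa: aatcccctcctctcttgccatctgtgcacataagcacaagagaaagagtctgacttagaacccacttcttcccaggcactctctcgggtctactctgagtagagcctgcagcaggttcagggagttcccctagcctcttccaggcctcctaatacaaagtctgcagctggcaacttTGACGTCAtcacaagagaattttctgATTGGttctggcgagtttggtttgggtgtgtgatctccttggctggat
H2-Eb1: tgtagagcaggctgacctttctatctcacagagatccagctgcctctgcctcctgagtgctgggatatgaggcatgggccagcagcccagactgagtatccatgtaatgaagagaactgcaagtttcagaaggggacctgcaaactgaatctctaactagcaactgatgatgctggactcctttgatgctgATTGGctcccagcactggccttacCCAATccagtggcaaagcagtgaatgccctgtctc
A gene was counted when any of its entries held a match in such a window. The letters CCAAT were in 23 of the 26 member genes (88.5%) and in 37.5% of all 27025 genes with an entry. GGGGANTCC was in 5 member genes (19.2%), all of class I, and in 1.21% of all genes. In H2-D1 and H2-K1 it matched both strands at overlapping positions, as TGACG did in H2-Aa. TGACG was in 10 member genes (38.5%, against 19.8% of all). These were 7 of 14 genes of class I, 1 of 7 of class II (14.3%) and 2 of 3 of the light chain and loading genes. GAAANNGAA was in 4 member genes (15.4%, against 8.18% of all), B2m among them. A match is a description of these reference letters and says nothing of binding, and the sequences are of the reference genome, not of 129/Sv or the null line.

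Of the 65 probe sets, 32 exceeded their array's median signal on at least 2 arrays and were tested among 12575 such probe sets, 15 of them for class I heavy chains, 6 for the light chain and loading genes, 8 for class II chains, 2 for Cd74 and Ctss, and 1 for H2-Ke6. The other 33 were not tested. Their signals ran from 7.9 to 693, and 32 of them never exceeded an array median. Among these were both probe sets of Ciita, those of H2-Oa, H2-Ob and the H2-DMb genes, 3 of the 4 for Tap1, and those of H2-Q10, H2-T3, H2-M9 and H2-M10.1. H2-D1 was the only symbol of 9 probe sets, 4 of them tested, and H2-Ea of 3, 1 of them tested. A probe set was called when its difference had an adjusted p under 0.05 in limma, with Benjamini-Hochberg adjustment over all 12575, and differences are on the log2(signal + 16) scale.

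Some tested probe sets of H2-D1, B2m and H2-Ab1, but not all, were called lower on B6 than on 129/Sv arrays. Between the strains 4 member probe sets were called, all lower in B6: 2 of H2-D1, 1 of B2m and 1 of H2-Ab1. That is 4 of 32 (12.5%), where 5.19% of all probe sets tested were called. The count of members fell to 1 without B6 array 2 or 3 or null array 2 or 3, and to 2 without B6 array 4. Without either 129/Sv array, which leaves that strain with 1, fewer were called, both among members and among all probe sets. Probe sets marked _at with no further letter are named here the 1-transcript type, though some members of it carry several symbols. Of the 13 tested members of this type 0 were called, but the 4 called members are of other types and were dropped without a retest. Over all probe sets the strain calls were 653 of 12575 in the main fit, and 569, 540 and 592 without B6 arrays 2, 3 and 4. They were 607 and 605 without null arrays 2 and 3, and 450 of 7836 for the 1-transcript type. Between null and B6 arrays 1 member was called, B2m, higher in the null (3.12% of members, 2.18% of all). Between null and 129/Sv arrays no member was called by limma, where 2.04% of all probe sets were. At an unadjusted p under 0.05 there were 14 members for null against B6 (1812 of all 12575 probe sets), 6 for null against 129/Sv (1509 of all) and 8 between the strains (2187 of all). No member was called against both strains in the same direction, as 0.0954% of all probe sets were.

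H2-D1 and H2-K1 encode the classical class I heavy chains, which present peptides to CD8 T cells. Probe set 1451784_x_at of H2-D1 gave 11292 and 10941 on the 129/Sv arrays, 7716, 7808, 8060.2 and 8038.5 on the B6 arrays and 9300.1, 9741 and 9925 on the Cyp2g1-null arrays. The 3 groups did not overlap, with B6 lowest, 129/Sv highest and the null between them. Means were 11116 ± 248 (SD, n = 2), 7906 ± 170.4 (n = 4) and 9655 ± 321 (n = 3) for 129/Sv, B6 and null. B6 was 1.41-fold lower than 129/Sv (log2 difference -0.49, SE 0.088, adjusted p = 0.00401). The null difference was 0.29 from B6 (adjusted p = 0.0759) and -0.20 from 129/Sv (adjusted p = 0.404), and neither passed. Without the first 129/Sv array, which leaves that strain with 1 array, the adjusted p between the strains was 0.0556.

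A second H2-D1 probe set, 1425545_x_at, gave 13437.5 and 12626 on the 129/Sv arrays, 10537, 9279, 10429.6 and 10189.6 on the B6 arrays and 11544, 12503 and 12722 on the Cyp2g1-null arrays. B6 lay below both 129/Sv arrays and below all null arrays. Its B6 mean of 10109 ± 572 (SD, n = 4) was 1.29-fold below the 129/Sv mean of 13032 ± 574 (n = 2), with a log2 difference of -0.37 (SE 0.094, adjusted p = 0.0355). This call was lost when any of 7 single arrays was left out. These were both 129/Sv arrays, B6 arrays 2, 3 and 4, and null arrays 2 and 3. The remaining tested H2-D1 probe sets, given after their values were seen, were not called. On 1451683_x_at the strains overlapped, with 1112 and 1482 on 129/Sv and 1530, 709, 822 and 956 on B6 arrays. Its B6 minus 129/Sv difference was -0.41 (adjusted p = 0.465) and its null minus 129/Sv difference 0.38 (adjusted p = 0.665). On 1426324_at the B6 minus 129/Sv difference was -0.40 (adjusted p = 0.321).

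H2-K1 had no called probe set. Its probe set 1425336_x_at gave 29947 and 25726 on the 129/Sv arrays, 23753, 23580.5, 22583 and 20149 on the B6 arrays and 23730.5, 29839 and 28319 on the Cyp2g1-null arrays. B6 lay below both 129/Sv arrays, with a B6 minus 129/Sv difference of -0.30 (95% interval -0.54 to -0.066, adjusted p = 0.157). Probe set 1451931_x_at gave 4650.2 and 4728 on the 129/Sv arrays, 3864, 3476, 3642 and 4183 on the B6 arrays and 3909, 4057 and 4127 on the Cyp2g1-null arrays. On this probe set both 129/Sv arrays were above the other 7, with a B6 minus 129/Sv difference of -0.31 (-0.54 to -0.073, adjusted p = 0.145). H2-K1 1427746_x_at, singled out after its values were seen, had the largest estimated strain difference of the H2-K1 probe sets, -0.70 for B6 minus 129/Sv (-1.26 to -0.15, adjusted p = 0.161).

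**Figure D1:**
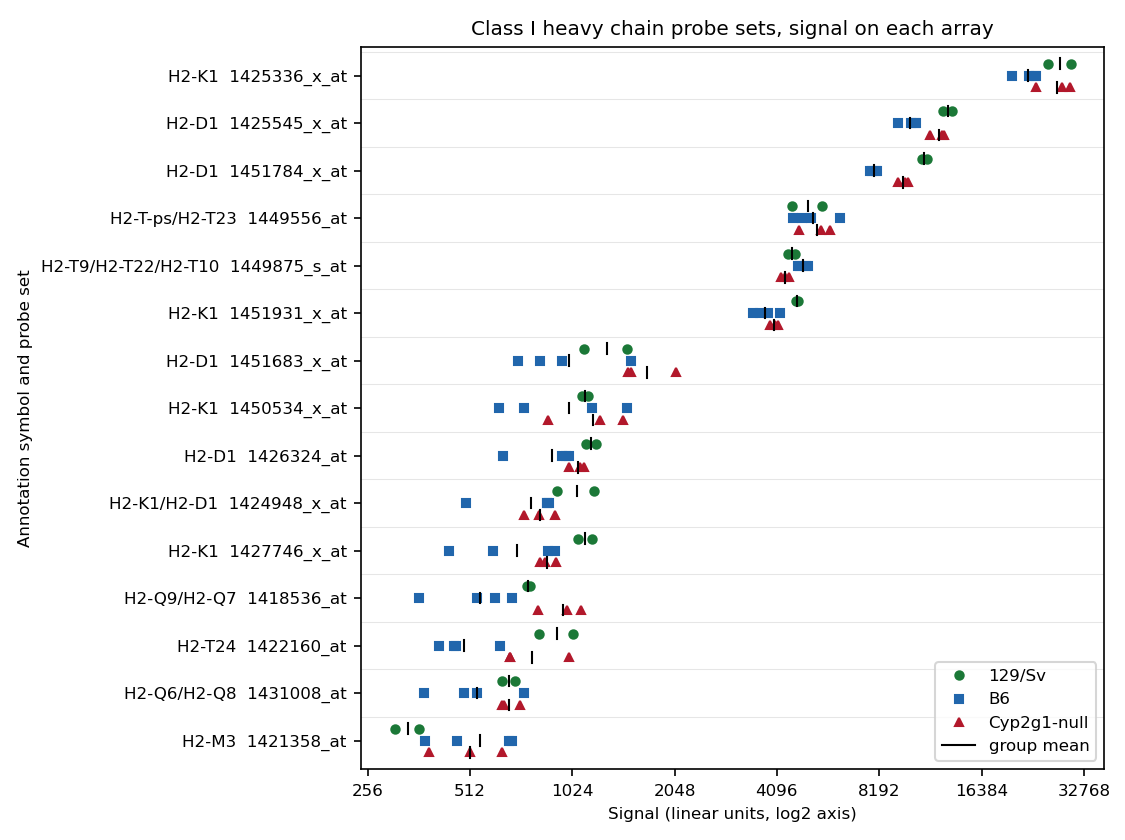
Signals of the 15 class I heavy chain probe sets tested, on a log2 axis, for 2 arrays of 129/Sv (circles), 4 of B6 (squares) and 3 of Cyp2g1-null (triangles), with a black bar at each group mean. Rows are sorted by mean log2 signal for display only. For H2-D1 1451784_x_at the B6 arrays sit between 7716 and 8060.2, below the null arrays and below both 129/Sv arrays.

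Over the 9 classical class I probe sets tested, of H2-K1, H2-D1 or both, the B6 minus 129/Sv difference was negative for 9 and the null minus B6 difference was positive for 9. Their medians were -0.40 and 0.28, beside medians of -0.013 and 0.016 over all probe sets tested. Both comparisons use the B6 arrays. The null minus 129/Sv difference was negative for 7 of 9, with a median of -0.13. On single arrays, the median deviation of these probe sets from their own means was 0.20 and 0.26 in 129/Sv, 0.019, 0.13 and 0.15 in the null, and -0.11, -0.30, -0.13 and 0.0069 in B6. The fourth B6 array therefore came near the first null array. All but 1 of these 9 (1426324_at) are of a type, marked _x_at, whose probes can match several transcripts, and related heavy chains may share their signal.

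The non-classical, or class Ib, heavy chains include H2-T23, a ligand of natural killer receptors, H2-M3, which presents formylated peptides, and the Q and T region genes. None of their 6 tested probe sets was called in any comparison. The probe set of H2-T-ps and H2-T23 (1449556_at) gave 5561 and 4524.5 on the 129/Sv arrays, 6288, 4869.7, 4578 and 5172 on the B6 arrays and 5532, 4752 and 5857 on the Cyp2g1-null arrays. The groups overlapped in all comparisons, and its 3 log2 differences lay between 0.046 and 0.095, with intervals that reached 0.42. The probe set shared by H2-T9, H2-T22 and H2-T10 (1449875_s_at) gave 4419 and 4639 on the 129/Sv arrays, 5073, 4789.9, 4721 and 5004 on the B6 arrays and 4442, 4327.5 and 4200.5 on the Cyp2g1-null arrays. Here B6 was above both other groups, by 0.11 over 129/Sv (adjusted p = 0.634), which is opposite in sign to the classical chains.

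The other 4 class Ib probe sets are given after their values were seen. H2-T24 (1422160_at) gave 1030 and 818 on the 129/Sv arrays, 629, 417, 461 and 467.5 on the B6 arrays and 999, 673 and 673 on the Cyp2g1-null arrays. B6 was below both groups, and its B6 minus 129/Sv difference of -0.89 missed the threshold (adjusted p = 0.0605). The probe set of H2-Q9 and H2-Q7 (1418536_at) gave 752 and 767 on the 129/Sv arrays, 606, 680.2, 363 and 539 on the B6 arrays and 812, 1085 and 987 on the Cyp2g1-null arrays. All null arrays were above all 6 wild-type arrays, with differences of 0.82 from B6 (SE 0.22, adjusted p = 0.0792) and 0.32 from 129/Sv (adjusted p = 0.725). The probe set of H2-Q6 and H2-Q8 (1431008_at) gave 695 and 636 on the 129/Sv arrays, 537, 737, 493 and 376 on the B6 arrays and 647, 720 and 636 on the Cyp2g1-null arrays, and its groups overlapped in every comparison. H2-M3 (1421358_at) gave 363 and 309 on the 129/Sv arrays, 378.5, 680.2, 668 and 470.2 on the B6 arrays and 637.5, 388 and 513 on the Cyp2g1-null arrays. It exceeded the array median on 3 arrays, none of them of 129/Sv, so it was tested only through the groups where it was high, and no difference of it was called.

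B2m, the light chain shared by all class I molecules, was the only member called in 2 comparisons. Its probe set 1449289_a_at gave 10976 and 11830.3 on the 129/Sv arrays, 9247, 7324, 8516 and 8575 on the B6 arrays and 10157, 12746 and 12281.5 on the Cyp2g1-null arrays. All B6 arrays were below all arrays of the other groups, which overlapped each other. The null mean of 11728 ± 1380.4 (SD, n = 3) was 1.39-fold above the B6 mean of 8415 ± 799.6 (n = 4), a log2 difference of 0.48 (SE 0.10, adjusted p = 0.0299). B6 was 1.36-fold below 129/Sv (mean 11403 ± 604, n = 2), a log2 difference of -0.44 (SE 0.12, adjusted p = 0.0464). The null minus 129/Sv difference was 0.035 (-0.23 to 0.30). The call against B6 was lost without B6 array 2, 3 or 4 or null array 2 or 3 (adjusted p between 0.0574 and 0.159), and the call between strains in 13 of 19 alternatives.

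The second B2m probe set, 1452428_a_at, gave 10911.5 and 11261 on the 129/Sv arrays, 10751, 7485, 10112 and 8504 on the B6 arrays and 10126, 14795 and 13574 on the Cyp2g1-null arrays. The null and B6 arrays overlapped on it. Its null minus B6 difference of 0.47 was of the same size as that of the first probe set but had a larger error (SE 0.14, adjusted p = 0.111). Its B6 minus 129/Sv difference was -0.28 (-0.62 to 0.061, adjusted p = 0.406).

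The peptide loading genes showed no called difference. Tapbp 1421812_at gave 5583.5 and 4874 on the 129/Sv arrays, 5603, 4651, 5249 and 4539 on the B6 arrays and 5561, 5883 and 6042 on the Cyp2g1-null arrays. Tapbp 1450378_at gave 1036 and 1121.5 on the 129/Sv arrays, 1252, 1144, 1412 and 1236 on the B6 arrays and 1209.7, 1646 and 1369 on the Cyp2g1-null arrays. Both tapasin probe sets had their highest array among the null, and their null minus B6 differences were 0.22 (adjusted p = 0.342) and 0.15 (adjusted p = 0.68). Tap2 (1453913_a_at) gave 841 and 864 on the 129/Sv arrays, 896, 634, 756 and 971 on the B6 arrays and 795, 945 and 1060.1 on the Cyp2g1-null arrays. Tap1 1416016_at gave 543 and 448 on the 129/Sv arrays, 564, 398, 680.4 and 581 on the B6 arrays and 436, 645 and 825 on the Cyp2g1-null arrays. Within each group the Tap1 and Tap2 arrays spread about as widely as the groups differed, and the largest of their differences, Tap1 null minus 129/Sv, was 0.31 (-0.38 to 1.00). The other 3 Tap1 probe sets stayed below every array median: 1420274_at ran from 7.9 to 99.6, 1448177_at from 18.4 to 179, and 1449803_x_at from 13.9 to 156. All 6 light chain and loading probe sets tested had positive null minus B6 and null minus 129/Sv differences, with medians of 0.21 and 0.18, and 1 of these 12 differences was called.

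**Figure D2:**
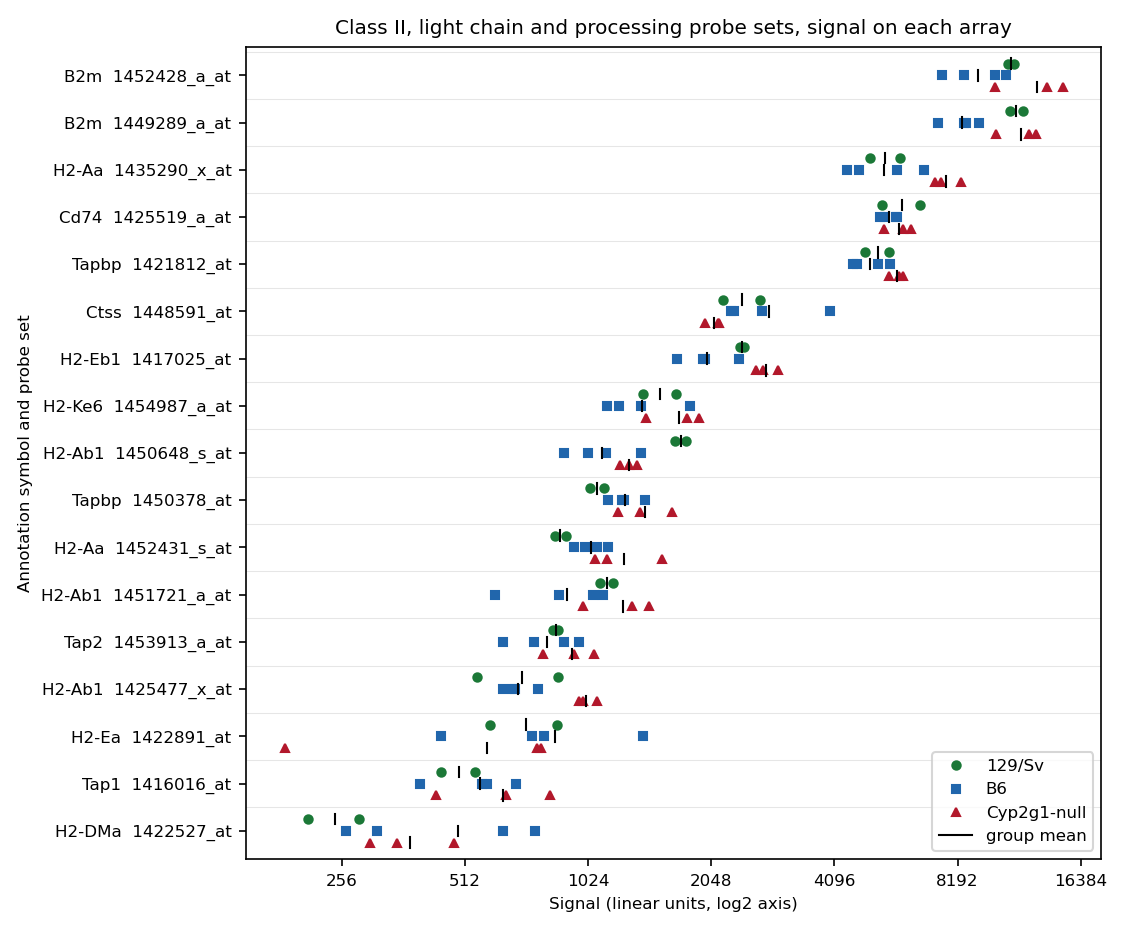
Signals of the 17 other member probe sets tested (class II chains, B2m, Tap1, Tap2, Tapbp, Cd74, Ctss and H2-Ke6) on a log2 axis, with the symbols of the class I plot and a black bar at each group mean. Null arrays sit above all 6 wild-type arrays for H2-Aa 1435290_x_at, H2-Eb1 and H2-Ab1 1425477_x_at, and below them for Ctss.

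Class II chains were on the array as 15 probe sets, 8 of them tested, and 1 was called in 1 comparison. H2-Ab1 1450648_s_at, of the class II beta chain that pairs with H2-Aa, gave 1667 and 1779.9 on the 129/Sv arrays, 1135, 1025, 892 and 1383 on the B6 arrays and 1350.1, 1222 and 1292 on the Cyp2g1-null arrays. Both 129/Sv arrays were above the other 7, and null and B6 arrays overlapped. The B6 mean of 1109 ± 208 (SD, n = 4) was 1.57-fold below the 129/Sv mean of 1724 ± 79.7 (n = 2), a log2 difference of -0.65 (SE 0.17, adjusted p = 0.0459). It was lost when any array other than B6 arrays 1 and 4 was left out, with adjusted p-values up to 0.279.

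The 3 tested probe sets of H2-Ab1 did not show one pattern. H2-Ab1 1451721_a_at gave 1096 and 1181 on the 129/Sv arrays, 1113, 606, 1051 and 871 on the B6 arrays and 1314, 1442.5 and 992 on the Cyp2g1-null arrays. Its groups overlapped, with a B6 minus 129/Sv difference of -0.35 (-0.86 to 0.15). H2-Ab1 1425477_x_at, chosen after its values were seen, gave 865 and 548 on the 129/Sv arrays, 770.4, 635, 680.3 and 672 on the B6 arrays and 995, 1075.5 and 973 on the Cyp2g1-null arrays. On this probe set the strains differed by -0.0024 (-0.46 to 0.45) and all null arrays were above all wild-type arrays, by 0.55 over B6 (adjusted p = 0.169) and 0.55 over 129/Sv (adjusted p = 0.32). On 1450648_s_at the null was -0.42 from 129/Sv, so the sign of the null difference from 129/Sv depended on the H2-Ab1 probe set read. Whether these probes match the transcripts of all 3 groups equally was not tested.

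H2-Aa, the alpha chain of the same molecule, was represented by 1435290_x_at and 1452431_s_at. The first gave 5913 and 4992 on the 129/Sv arrays, 6764, 5836, 4691 and 4402 on the B6 arrays and 7229, 8336 and 7462 on the Cyp2g1-null arrays. All 3 null arrays were above all 6 wild-type arrays, and B6 arrays 1 and 2 were above B6 arrays 3 and 4. The null mean was 7676 ± 583 (SD, n = 3), 0.52 above B6 on the log2 scale (SE 0.14, adjusted p = 0.072) and 0.49 above 129/Sv (SE 0.17, adjusted p = 0.189). Neither passed, but with B6 arrays 3 and 4 as the only B6 arrays both did (adjusted p = 0.00286 and 0.0291). Those are the lowest B6 arrays on this probe set, so keeping only them raises the null minus B6 difference by itself, to 0.75. The null minus 129/Sv difference stayed at 0.49, and only the estimated spread and the adjustment changed. These passes are therefore no support for either difference. The second H2-Aa probe set gave 849 and 902 on the 129/Sv arrays, 1077, 1005, 944.5 and 1143.5 on the B6 arrays and 1137, 1552 and 1063 on the Cyp2g1-null arrays. Its lowest arrays were the 2 of 129/Sv, with a null minus 129/Sv difference of 0.49 (adjusted p = 0.292), and null and B6 arrays overlapped.

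H2-Eb1, the beta chain of the H2-E molecule, gave 2466 and 2413 on the 129/Sv arrays, 1977, 1684, 1959.9 and 2395 on the B6 arrays and 2634, 2748 and 2974 on the Cyp2g1-null arrays. Null arrays were the 3 highest, 129/Sv arrays next and B6 arrays lowest, without overlap. The null minus B6 difference was 0.48 (SE 0.13, adjusted p = 0.0649) and the null minus 129/Sv difference 0.19 (adjusted p = 0.709). H2-Ea 1422891_at, of the alpha chain gene that RefSeq lists as a transcribed pseudogene, ran from 186 to 1398 over the 9 arrays with the lowest on a null array and the highest on a B6 array. Its 95% interval for null minus B6 was -1.64 to 0.30, too wide to place it. H2-DMa (1422527_at), the alpha chain of the peptide exchanger, gave 211 and 282 on the 129/Sv arrays, 635, 312, 759 and 262 on the B6 arrays and 299.6, 481 and 349 on the Cyp2g1-null arrays, with no called difference.

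Cd74, the invariant chain, showed no called difference. Its probe set 1425519_a_at gave 6635 and 5341 on the 129/Sv arrays, 5807, 5434, 5811 and 5283 on the B6 arrays and 5400.4, 6293 and 6024 on the Cyp2g1-null arrays. All groups overlapped, and the null differed from B6 by 0.079 (-0.14 to 0.30) and from 129/Sv by -0.014 (-0.28 to 0.25). Ctss, cathepsin S, gave 2687 and 2193 on the 129/Sv arrays, 2331, 3985, 2729 and 2286 on the B6 arrays and 2130.1, 2142 and 1975 on the Cyp2g1-null arrays. Its null arrays were the 3 lowest of 9, with null minus wild-type differences of -0.40 from B6 (adjusted p = 0.292) and -0.22 from 129/Sv (adjusted p = 0.766). Ciita stayed below every array median. Its 1421210_at gave 173 and 14.1 on the 129/Sv arrays, 70.8, 179, 47.2 and 10.2 on the B6 arrays and 39.8, 155 and 30.1 on the Cyp2g1-null arrays, and its 1421211_a_at gave 214 and 222 on the 129/Sv arrays, 237, 190.2, 147 and 346 on the B6 arrays and 145, 294.5 and 254 on the Cyp2g1-null arrays. Both Ciita probe sets varied as much within groups as between them.

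Null arrays lay above all 6 wild-type arrays for 4 member probe sets (H2-Aa 1435290_x_at, H2-Ab1 1425477_x_at, H2-Eb1, and H2-Q9 with H2-Q7) and below them for 1 (Ctss). Of all probe sets tested, 2.9% lay above and 1.96% below. H2-Ke6 (1454987_a_at) overlapped between all groups, and none of its differences was called.

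**Figure D3:**
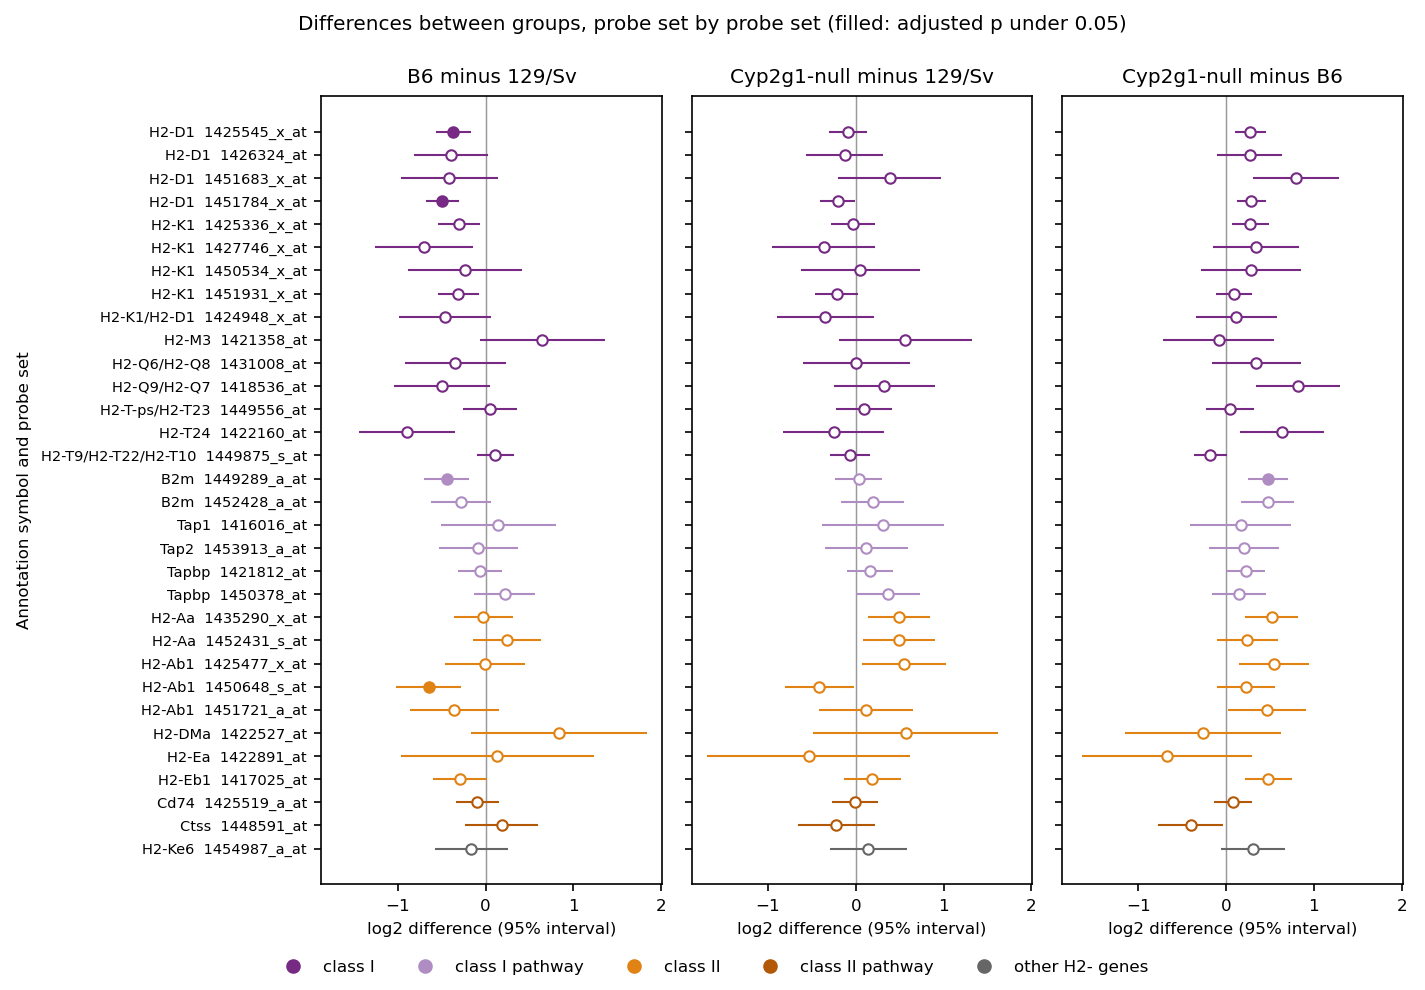
Log2 differences with 95% intervals for the 32 member probe sets tested, in B6 minus 129/Sv, null minus 129/Sv and null minus B6, coloured by class. Filled points have an adjusted p under 0.05: H2-D1 (2 probe sets), B2m and H2-Ab1 between the strains, and B2m between null and B6. The 9 classical class I points lie left of 0 in the first panel and right of 0 in the third, which share the B6 arrays.

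The class medians are set side by side here. For the 15 class I probe sets the median difference was -0.37 for B6 minus 129/Sv, -0.067 for null minus 129/Sv and 0.28 for null minus B6. For the 8 class II probe sets it was -0.013, 0.34 and 0.36. Over all probe sets tested these medians were -0.013, 0.0033 and 0.016. The difference between the classes was not tested, since members of a class share probes and genes. Without the probe sets that can match several transcripts, 3 class II probe sets remained, with null minus B6 differences of 0.48 for H2-Eb1, -0.26 for H2-DMa and -0.67 for H2-Ea. H2-DMa exceeded the array median on 2 arrays only, both of B6, and the interval of H2-Ea was wide. Over all 32 members, 27 had a positive null minus B6 difference, 19 a positive null minus 129/Sv difference and 9 a positive B6 minus 129/Sv difference.

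Other genes of antigen presentation were given by lists. Peptide loading and proteasome genes had 18 probe sets tested and 0 called by limma in the 3 comparisons, with 0 (null against B6), 1 (null against 129/Sv) and 0 (B6 against 129/Sv) at an unadjusted p under 0.05. Calr, the chaperone calreticulin, differed by 0.031, 0.074 and 0.043 in that order, and Hspa5, an endoplasmic reticulum chaperone, by -0.32, -0.014 and 0.31. Of 14 endosomal processing probe sets, Ctsl (cathepsin L, 1451310_a_at) alone was called. It gave 12041 and 12355 on the 129/Sv arrays, 19223, 18202, 18046 and 18847 on the B6 arrays and 15059, 11013 and 13096 on the Cyp2g1-null arrays. Ctsl was higher in B6 than in 129/Sv by 0.61 (adjusted p = 0.00457) and lower in the null than in B6 (null minus B6 -0.52, adjusted p = 0.0114), opposite in sign to B2m. None of 13 probe sets for transcription factors of histocompatibility genes was called by limma, and 1, 2 and 1 had an unadjusted p under 0.05. Irf1 differed by 0.12, 0.27 and 0.16, and Nfyc, a CCAAT-binding subunit, by -0.12, 0.14 and 0.26. Of 5 probe sets for class I-like genes outside the complex, Azgp1 was called between the strains (1.05, adjusted p = 0.0088), higher in B6.

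Interferon-stimulated genes had 25 probe sets on the array and 13 tested. All 13 had positive null minus 129/Sv differences (median 0.48, 0 called by limma, 6 at an unadjusted p under 0.05) and 11 of 13 had positive B6 minus 129/Sv differences (median 0.40, 1 called). The called gene was Rsad2 (1436058_at), an antiviral enzyme, at 331 and 168 on the 129/Sv arrays, 686.5, 506, 695 and 724 on the B6 arrays and 461, 553 and 499 on the Cyp2g1-null arrays. Rsad2 was higher in B6 by 1.39 (adjusted p = 0.02), but both 129/Sv signals were below the array medians. It was thus tested only through the groups where it was high. Its call is therefore no support for a difference, and the size of this difference is uncertain. Null against B6, 6 of 13 were positive. The summed signal of all 25 was 9173 to 11666.5 on 129/Sv, 13334 to 13959 on B6 and 13958 to 14179 on null arrays.

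Since each array is bulk RNA, fewer cells of a type and less RNA per cell cannot be told apart. Of 28 probe sets for macrophages and dendritic cells 17 were tested. All 28 had a summed signal of 44547 to 50588 on 129/Sv, 41295 to 46001 on B6 and 48965 to 55089.6 on null arrays. Most of each sum came from 1 probe set of Lyz2 (1423547_at). It gave 35654 and 29141 on 129/Sv, 22601 to 26705 on B6 and 31183 to 36646 on null arrays. The sum therefore mainly follows Lyz2 and is not a level of the whole list. Of the 17, 15 had a positive B6 minus 129/Sv difference (median 0.18), 12 a positive null minus 129/Sv difference (median 0.25) and 7 a positive null minus B6 difference (median -0.24), and 3 were called in at least 1 comparison. Lyz2, lysozyme, was 0.49 higher in the null than in B6 (adjusted p = 0.0115) and lower in B6 than in 129/Sv (B6 minus 129/Sv -0.42, adjusted p = 0.0343), the same directions as B2m, but between the strains opposite to most of its list. C1qa, a complement gene of macrophages, was higher in B6 (B6 minus 129/Sv 0.90, adjusted p = 0.00256). C1qb, of the same complement protein, had 3 probe sets tested, and 1434366_x_at was called above 129/Sv in B6 (0.69, adjusted p = 0.0174) and in the null (0.85, adjusted p = 0.0143). Of the other markers that define these cells, Itgax, Ccr7, Flt3, Itgam, Aif1, Cd68, Fcer1g and Cd83 did not pass the signal filter, while C1qc, Laptm5, Csf1r, Ptprc, Tyrobp and Adgre1 did, none of them called.

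B and plasma cell markers had 32 probe sets, 19 of them tested. All 32 had a summed signal of 328026 to 421420.3 on 129/Sv, 286667 to 398317 on B6 and 339639 to 405727 on null arrays. Ighm (1427351_s_at), the heavy chain of IgM, gave 1136 and 598 on the 129/Sv arrays, 319.6, 100.1, 142 and 41.0 on the B6 arrays and 443, 937.5 and 879 on the Cyp2g1-null arrays. B6 was below both other groups, with a B6 minus 129/Sv difference of -2.62 (adjusted p = 0.0224), and the null was 2.42 above B6 (adjusted p = 0.0329). All 4 B6 signals of Ighm were below the array medians, so it was tested only through the groups where it was high. Its calls against B6 are therefore no support for a difference, and the sizes of these differences are uncertain. Of the 19, 6 had a positive B6 minus 129/Sv difference (median -0.27) and 13 a positive null minus B6 difference (median 0.22). The B cell markers Ms4a1, Cd79a and Cd79b did not pass the signal filter. None of 24 probe sets for T and natural killer cells was tested, and their summed signal ran from 2696 to 3663 over all arrays. The part of Lyz2, Ighm and the cells they mark in the differences of B2m, H2-D1 and class II was not tested. Secretory markers of the gland had a summed signal of 415098 to 662497 over all arrays. Of these, Scgb1b27 and Scgb2b27 were lower on 129/Sv than on B6 and null arrays (B6 minus 129/Sv 2.15 and 1.33). The list of 10 tested probe sets did not share this pattern. B6 minus 129/Sv was positive for 7 and negative for 3 (median 0.15). Null minus 129/Sv was positive for 4 and negative for 6 (median -0.0068), and null minus B6 positive for 3 and negative for 7 (median -0.15).

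**Figure D4:**
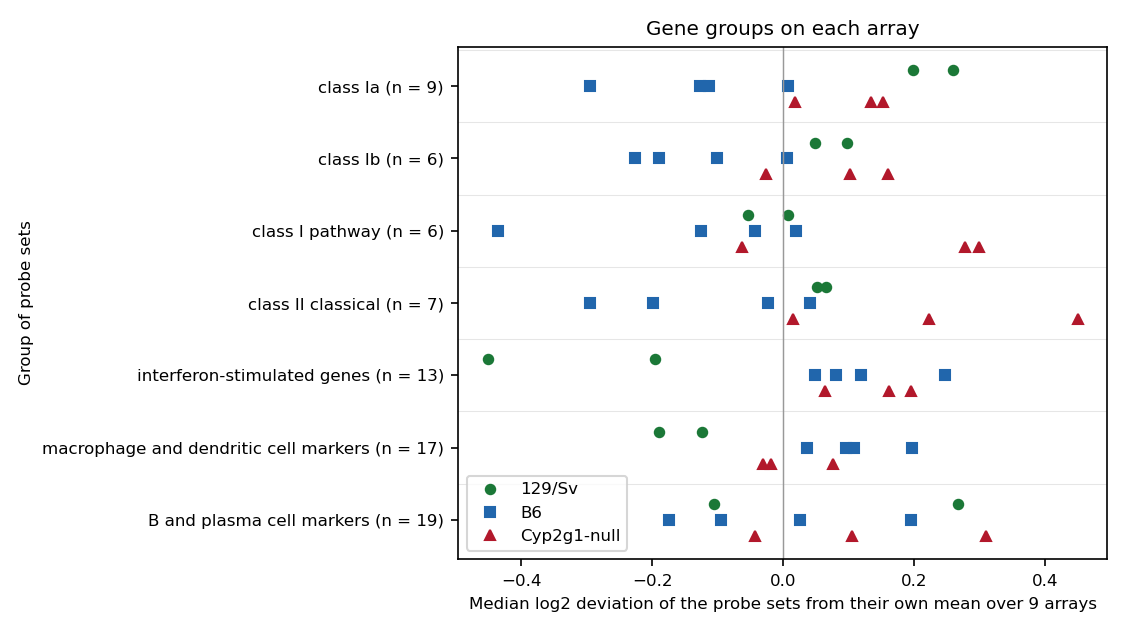
Median log2 deviation of the tested probe sets of 7 gene groups from their own means over the 9 arrays, with 1 point for each array of 129/Sv (circles), B6 (squares) and Cyp2g1-null (triangles). Classical class I medians are 0.20 and 0.26 on 129/Sv and -0.30 to 0.0069 on B6 arrays, whereas interferon-stimulated genes are -0.20 and -0.45 on 129/Sv and 0.048 to 0.25 on B6 arrays.

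The H2 genes lie together on chromosome 17, while B2m is on chromosome 2. Other genes between H2-K1 and H2-M2 on chromosome 17, a comparison chosen after the data were seen, had 74 probe sets tested. Between the strains 2 were called, Abcf1 (1426921_at, 2.80, adjusted p = 3.55e-06, higher in B6) and Vars (-0.62, adjusted p = 0.0457), and their median difference was -0.020. Between null and 129/Sv 1 was called, Abcf1 (2.05, adjusted p = 0.000233), and between null and B6 0 by limma, with 11 at an unadjusted p under 0.05 (1812 of all 12575). Another Abcf1 probe set, 1420157_s_at, differed by -0.11 between the strains.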

How the data were processed

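Deposited values were linear signal intensities, which the authors made with MAS5 (version not given in the sources used here) according to the submitters' processing notes. Once 2% of values were trimmed from either end, all arrays shared a mean of 1500.6, as after scaling to a target. Values spanned 0.6 to 177173. Detection calls were not used, so background is unknown. The labels identified the sample of each of the 9 columns. Of 22690 probe sets, 64 controls were left out. Of the rest, 20380 had 1 symbol in the platform annotation, 691 several and 1555 none, and symbols were kept as annotated.

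Signals were turned into log2(signal + 16), which understates changes of low signals, with no further normalization. Probe sets above their array's median on at least 2 of 9 arrays were fitted with a mean per group in limma 3.58.1 (R 4.3.3; lmFit and eBayes, trend on). The spread was estimated over the 3 groups together, as 129/Sv had 2 arrays. Tests were two-sided, adjusted by the Benjamini-Hochberg method over all probe sets tested, with a threshold of 0.05. The script was tested on simulated data.

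Members, classes, gene lists and alternatives were chosen with earlier results of these data known. The motifs, the defining markers picked from the lists, and the neighbouring genes were chosen after the files had been read. Values on each array are given for called members, for the 4 uncalled tested members with the highest mean signal of class I, of class II and of the others, and for every probe set of B2m, Tap1, Tap2, Tapbp, Cd74, Ciita and Ctss. From each list up to 2 called probe sets with the smallest p are named or, where none was called, the 2 with the highest mean signal. Members named beyond this are said to be so, and H2-Ea, H2-DMa and H2-M3 were also chosen after their values were seen, as were the second Abcf1 probe set and the genes of the strain comparison on chromosome 17. The labels give no batch or scan date. Alternatives changed the normalization between arrays (quantile, equal medians), the pseudocount (1, 64), the filter (none, 75th percentile), the probe sets kept, the spread, the arrays and the replicate number as a block.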

Additional observations from a re-analysis of the deposited data

Results flagged for a closer look

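Of 32 member probe sets tested, 2 had a B6 array far from the other 3 by Dixon's test, a test that chance passes in about 1 of 20 groups. The probe set of H2-K1 and H2-D1 (1424948_x_at) gave 498.7, 877, 864 and 862 on B6 arrays 1 to 4, with the first apart. H2-D1 1426324_at gave 980, 641.1, 954 and 1002 on the same arrays, with the second apart. The low arrays differed between the 2 probe sets, and neither probe set was called in any comparison.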

How the results depend on the processing

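Over 21 alternatives no called difference changed sign. H2-D1 1451784_x_at kept its call between the strains in 18 of 19 (adjusted p 0.00268 to 0.0556), B2m its call of null against B6 in 12 of 19 (0.0125 to 0.159), H2-D1 1425545_x_at in 9 of 20 (0.0169 to 0.254), H2-Ab1 1450648_s_at in 7 of 19 (0.0161 to 0.279) and B2m between the strains in 6 of 19 (0.0223 to 0.306). The cause was not tested, except that fewer arrays or probe sets enter some fits.

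Members called, null against B6, were 1 in the main fit (274 of all 12575 probe sets). They were 2 with the filter at the 75th percentile (253 of all 6391) and 4 with B6 arrays 3 and 4 only (542 of all 12304). They were 0 without trend (154 of all 12575). They were also 0 with 1 probe set per symbol (228 of all 8304) and with only the 1-transcript type (191 of all 7836). Both of these settings drop the called B2m probe set without a retest. With a B6 or null array left out they were 0 to 4. They were 0 without B6 array 2 or 3 (229 and 193 of all) and without null array 2 or 3 (165 and 153). They were 2 without null array 1 (164 of all) and 4 without B6 array 1 (611 of all). Members called, null against 129/Sv, were 0 in the main fit (256 of all 12575). They were 1 (H2-Aa 1435290_x_at) in a fit of only the 2 groups (356 of all) and with B6 arrays 3 and 4 only (410 of all 12304). With those B6 arrays 1 was also called against both strains, where 53 of all were, against 12 in the main fit. With an array left out both counts were 0 to 0. Members called between the strains were 4 in the main fit. They were 2 with quantile normalization and 2 without a filter. They were 1 without trend, 1 in a fit of only the 2 groups and 1 with B6 arrays 3 and 4 only. With 1 probe set per symbol they were 2 and with only the 1-transcript type 0. Both of these settings drop called probe sets without a retest. Called members were 1 to 5 with a B6 or null array left out. They were 2 without B6 array 4 and 1 without B6 array 2 or 3 or null array 2 or 3. Leaving out a 129/Sv array leaves 1, assumed to vary like the other groups. Fewer were then called among members and among all probe sets. Over all probe sets the strain calls were 653 of 12575 in the main fit, 644 with quantile normalization and 583 of 22626 without a filter. They were 489 of 8304 with 1 probe set per symbol and 450 of 7836 with the 1-transcript type. They were 491 without trend, 504 in a fit of only the 2 groups and 750 of 12304 with B6 arrays 3 and 4 only.

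The class I median, null minus B6 (0.28), was 0.16 without a filter, 0.18 at the 75th percentile, 0.14 with B6 arrays 3 and 4 only, and 0.19 to 0.32 with an array left out. The class II median (0.36) was -0.26 with only the 1-transcript type and 0.26 to 0.48 with an array left out. For null minus 129/Sv the class I median (-0.067) was 0.049 with that type only and -0.099 to -0.044 with an array left out. The class II median (0.34) was 0.19 without a filter, with 1 probe set per symbol, with that type only and with B6 arrays 3 and 4 only, and 0.19 to 0.39 with an array left out. Between the strains the class I median (-0.37) was -0.30 without a filter and -0.37 to -0.32 with an array left out. The class II median (-0.013) was -0.16 at the 75th percentile, 0.14 with that type only, -0.17 with B6 arrays 3 and 4 only, and -0.22 to 0.0028 with an array left out. Equal array medians moved the median null minus 129/Sv difference of all probe sets to -0.058 and the members with a positive one from 19 to 16.

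Arrays with the same replicate number did not deviate together (correlations -0.075 to 0.096 over 7 pairs, 0 over 0.1), so no pairing by number was seen. So few pairs, with no batch or date in the labels, cannot exclude that arrays were handled together. With the replicate block, 1 member was called for null against B6 (H2-Eb1, adjusted p = 0.0389, in place of B2m, 0.0775), 0 for null against 129/Sv and 3 between the strains, where H2-K1 1427746_x_at (0.0474) was gained and H2-D1 1425545_x_at (0.068) and B2m (0.0888) were lost. With signals near background not identified, low members cannot be called absent.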
